A study of Mus musculus with 2 samples.

Results

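The genes described here are 10 mouse genes of antibody recognition and complement, namely the IgG receptor genes Fcgr1, Fcgr2b, Fcgr3 and Fcgr4, the signalling chain gene Fcer1g, the C1q chain genes C1qa, C1qb and C1qc, the central complement gene C3 and the properdin gene Cfp. They were taken by symbol from the array files, where they have 15 of the 56605 probes outside the controls and 10 of the 37074 gene names. RNA from mouse blood was measured by 1-colour Agilent microarray, once after heat and once in a control. Heat meant 1 h at 38.5 °C following 1 h of pretreatment in a 37 °C water bath, and the study asked which genes respond. The control carries no stated temperature or time, so effects of heat, of the pretreatment and of handling cannot be told apart. The labels name neither strain, age nor sex, and do not say whether animals or drawn blood were heated. Although they mention 3 replicates per line, a single array per group was analysed, and the differences given are therefore without a replicate check and without p-values.

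Fc receptors bind the constant part of antibodies on the surface of immune cells. The activating receptors signal through the common gamma chain that Fcer1g encodes, and the receptor encoded by Fcgr2b inhibits that signal. C1q, built from an A, a B and a C chain, binds antibody complexes and opens the classical pathway of complement, C3 is cleaved where the pathways meet, and properdin stabilises the enzyme that cleaves C3 in the alternative pathway. Most plasma complement comes from the liver, while C1q and properdin come largely from myeloid cells.

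The probes are the parts of each mRNA that the values below stand for. A probe each is shown for the related receptors Fcgr2b and Fcgr3, for both C1q chains with the highest differences, for C3 and for properdin, as 60 bases written 5′ to 3′. Capitals mark the longest run of bases that a probe of another gene on the array also holds.
Fcgr2b: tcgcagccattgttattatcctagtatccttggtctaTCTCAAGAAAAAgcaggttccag
Fcgr3: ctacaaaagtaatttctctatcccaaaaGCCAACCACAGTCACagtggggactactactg
C1qa: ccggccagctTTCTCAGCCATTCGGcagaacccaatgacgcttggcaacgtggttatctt
C1qb: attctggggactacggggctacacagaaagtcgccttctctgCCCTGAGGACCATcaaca
C3: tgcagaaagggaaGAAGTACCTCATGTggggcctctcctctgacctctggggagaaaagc
Cfp: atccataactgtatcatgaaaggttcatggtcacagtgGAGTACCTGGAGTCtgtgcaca
Over all 15 probes this longest shared run was 12 to 15 bases, and the GC content was 38.3% to 55.0%. The extracellular parts of Fcgr2b and Fcgr3 are closely similar in mice. Probes of different IgG receptor genes shared no run longer than 7 bases. That compares probe with probe, which can lie on different parts of the mRNA, and not a probe with the other receptor's transcript. Transcript sequences and matches with mismatches were not searched, so signal from a related transcript was not tested.

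By the coordinates in the files, which are mm9, 4 of the genes lie together on chromosome 1 and 3 on chromosome 4. The printed Fcgr2b probe lies at chr1:172895833-172895892 and the Fcgr3 probe at chr1:172984129-172984188, both on the minus strand. Fcgr4 lies between them on the plus strand at chr1:172959738-172959797, and Fcer1g follows at chr1:173159794-173159853. From the other Fcgr2b probe, which starts at chr1:172890988, to Fcer1g the stretch spans 269 kb. It holds probes for 10 other gene names, of which 7 were measured on both arrays, with differences between -0.16 and 0.32. The C1q probes span 15.9 kb with no probe of another gene between them, in the order C1qb (chr4:136436578-136436637), C1qc (chr4:136445766-136445825) and C1qa (chr4:136452409-136452468). The printed C3 probe lies at chr17:57343678-57343737. The printed Cfp probe covers chrX:20504475-20504676, which is 202 bases for a probe of 60, so its match to the genome is interrupted. No annotation of exons or UTRs in this build was used.

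All 10 genes were detected in both samples, and none was 2-fold apart. Detection means the scanner software's flag for signal well above background, which 53.8% of all probes outside the controls carried with heat, 52.0% in the control and 50.8% in both. Of the 15 probes, 15 carried it with heat, 14 in the control and 14 in both. The exception was A_55_P2721747, 1 of the C1qc probes, which is designed on an Ensembl transcript alone. Its processed signal was 26.8 with heat and 16.9 in the control sample, near the dimmest signals that still earned the flag (24.9 with heat and 31.0 in the control), so no fold is given for it. The other 14 probes had raw spot signals 31.1 to 2926 times their local background.

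**Figure D1:**
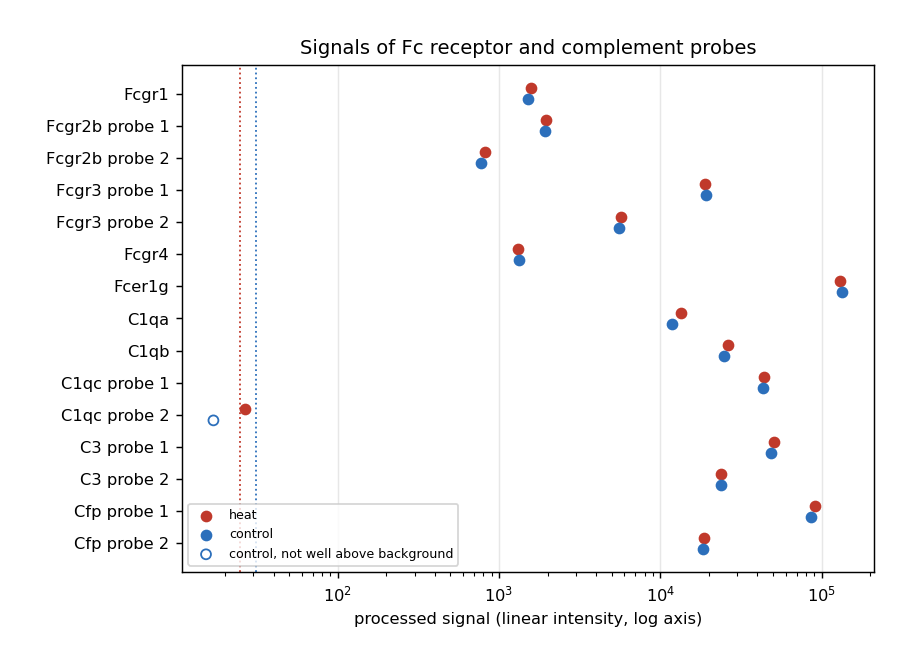
Processed signal (linear intensity on a log axis) of the 15 probes on the heat array (red) and the control array (blue), with dotted lines at the lowest signal well above background on each array. Points of a probe nearly coincide in 14 of 15 rows, and the dim C1qc probe sits at these lines, open where it was not well above background.

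Among the IgG receptors, every probe gave nearly the same signal in both samples. Fcgr1, the high-affinity IgG receptor, had a processed signal of 1571 with heat and 1523 in the control sample. After each array was scaled to its 75th percentile (604 in the heated sample, 620 in the control sample), the difference, heat minus control on the log2 scale, was 0.08. Fcgr4, a further activating receptor of mice, had signals of 1302 with heat and 1327 in the control sample, a difference of 0.01. These values are nearly equal, and the second is higher in the heated sample only after scaling. In bulk RNA, fewer cells of a type and less RNA per cell cannot be told apart.

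Fcgr2b and Fcgr3 each had a pair of probes, and in each pair both probes had small values on the same side of 0 after scaling. Fcgr2b, the inhibitory receptor of B cells and myeloid cells, had signals of 820 with heat and 773 in the control sample at the printed probe, a difference of 0.12. Its other probe had 1963 with heat and 1940 in the control sample, a difference of 0.06. Fcgr3, a low-affinity activating receptor, had 5743 with heat and 5513 in the control sample at the printed probe, which is 0.10. Its other probe had 18902 with heat and 19191 in the control sample, which is 0.02 and above 0 only after scaling. Signals of different probes depend on the probe, so they are not ranked against each other.

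Fcer1g, the gamma chain through which the activating receptors signal, had signals of 130103 with heat and 134289 in the control sample. Its difference was -0.01, the only value below 0 among the 10 genes, and its sign turned under 5 of the 12 other processing settings. The partners that join it in the high-affinity IgE receptor of mast cells and basophils, Fcer1a and Ms4a2, lacked the detection flag in both samples.

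Of the 3 C1q chains, C1qa and C1qb had the highest values of the 10 genes, while C1qc lay among the others. C1qa had signals of 13475 with heat and 11815 in the control sample, a difference of 0.23, or 1.17-fold. C1qb had 26445 with heat and 24917 in the control sample, a difference of 0.12. C1qc had 43917 with heat and 43524 in the control sample at its bright probe, a difference of 0.05. All 3 chains lie above 0, C1qc the least. With dim probes kept, the other C1qc probe raised that gene's mean to 0.38, and with normexp background correction and quantile normalization C1qc had 0.14.

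C3 and properdin were as close between the samples. C3 had signals of 50950 with heat and 48933 in the control sample at 1 probe (difference 0.10), and 23964 and 23749 (heated and control sample) at the printed one (0.05). Cfp had 90484 with heat and 85712 in the control sample at 1 probe, a difference of 0.12. At the printed probe it had 18581 with heat and 18291 in the control sample, a difference of 0.06. In the 4 genes with a pair of measured probes, the probes' differences lay between 0.045 (C3) and 0.081 (Fcgr3) apart.

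These differences are of the size of the measurement error that the arrays show. The scanner software's own error of a spot gives an error of 0.20 for a difference of this kind, and 13 of the 14 probes lay within it, C1qa being the exception. Probes printed at 10 spots, of which none belongs to these genes, gave a spot-to-spot SD of 0.08 for the difference (283 probes). Different probes of the same gene gave an SD of 0.19 over 6553 genes. Neither measure covers the spread between animals or blood samples.

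**Figure D2:**
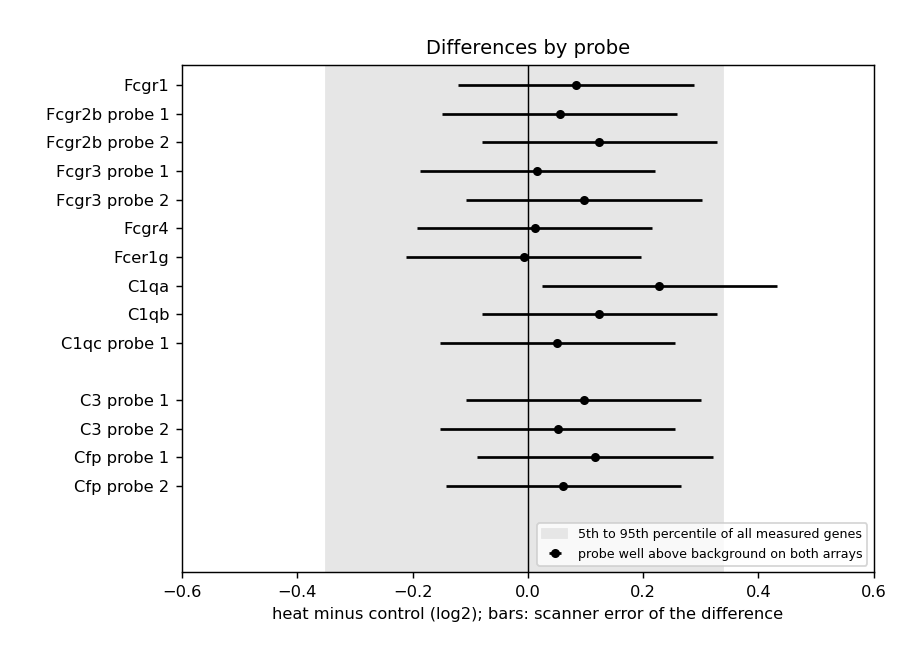
Difference of each probe well above background on both arrays (heat minus control, log2), with bars of the scanner software's error. All 14 lie between -0.01 and 0.23, inside the grey band from the 5th to the 95th percentile of all measured genes.

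Over the 10 genes, 9 had a difference above 0, where 52.2% of all 18562 measured genes did. The median of the 10 was 0.08, against 0.0076 for all measured genes. None reached 1 on the log2 scale (2-fold), a size that 0.663% of all genes had in either direction, and none reached 0.5, which 4.38% had. From the 5th to the 95th percentile, all genes lay between -0.35 and 0.34. Of all genes, 20.7% were farther from 0 than C1qa, 43.2% farther than C1qb and 95.8% farther than Fcer1g. The 10 genes share their arrays and their scaling, so their common side of 0 is a description of these 2 arrays.

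**Figure D3:**
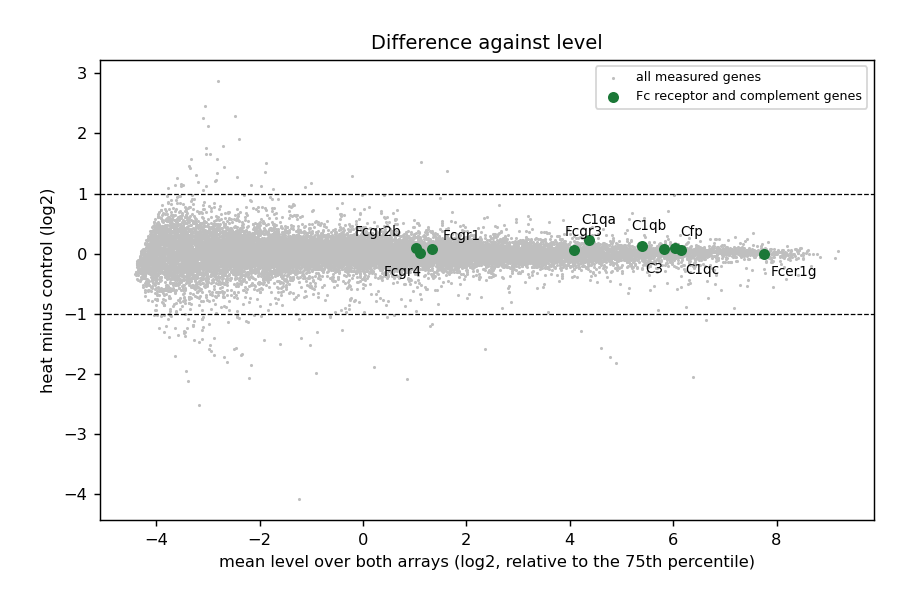
Difference (heat minus control, log2) against mean level of each of the 18562 genes measured on both arrays, with dashed lines at 2-fold. The 10 Fc receptor and complement genes (green) sit near 0, from -0.01 for Fcer1g to 0.23 for C1qa.

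Of 23 further genes of the complement cascade, 10 were detected with heat, 9 in the control and 9 in both, where 18562 of all 37074 gene names were measured on both arrays. Of 14 genes of the classical and lectin pathways, 5 were measured on both arrays, 3 higher and 2 lower in the heated sample, with a median of 0.12. C1ra, a protease that sits on C1q, had signals of 418 with heat and 394 in the control sample (0.12), but C1s1, its partner protease, lacked the detection flag in both samples. C2, the protease of the next step, had 129 with heat and 133 in the control sample (-0.01). Fcna, which encodes a ficolin that recognises sugars, had 1285 with heat and 1346 in the control sample (-0.03).

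C4b, which encodes the C4 that C1s cleaves, was the only one of the 53 pathway genes measured on both arrays (of 81 listed) to pass 0.5, a size that 4.38% of all genes had, with signals of 107 with heat and 71.9 in the control sample. Its difference was 0.61 from 1 usable probe. With normexp correction it was 0.43 with the 75th percentile and 0.38 with quantile normalization, and with dim probes kept it was 0.30. Its second probe carried the detection flag with heat only. C4b and C4a are near-identical, so the value cannot be assigned with certainty to C4b. The other lectin pathway genes Mbl1, Mbl2, Masp1 and Masp2 lacked the detection flag in both samples.

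In the alternative pathway, Cfb, which encodes factor B, had 232 with heat and 228 in the control sample at its brighter probe. Its 2 probes gave unlike differences, 0.065 and 0.40, with a mean of 0.23. Cfd, which encodes the protease that cleaves factor B, was well above background in the heated sample only and at least 1.09-fold higher there, with signals of 32.9 with heat and 14.8 in the control sample. This bound, like those below, sets the brighter array's scaled value against the higher of the dimmer array's own value and the lowest value well above background there. It leaves out the measurement error, so it is not a minimum beyond error. At the similarly dim C1qc probe the scanner software's error of the difference was 0.65 on the log2 scale. Of 7 terminal genes, which form the membrane pore, 3 were measured, namely C7 (0.19), C8g (-0.11) and C9 (0.21), with signals of at most 119 with heat and 131 in the control sample. Hc, which encodes mouse C5, lacked it in both.

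All 11 complement receptor genes were measured, 6 higher and 5 lower in the heated sample, with a median of 0.03 and none past 0.5. Cd93, a surface protein first described as a C1q receptor, had 41364 with heat and 39445 in the control sample (0.11). C1qbp, which encodes a C1q-binding protein of mitochondria, had 30298 with heat and 33216 in the control sample (-0.09). Itgb2, the beta chain of complement receptor integrins, had 26923 with heat and 27876 in the control sample (-0.01). The receptor genes therefore lie on both sides of 0.

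Of 13 regulator genes, 7 were measured, 3 higher and 4 lower in the heated sample, with a median of -0.04. Cr1l, which encodes the rodent membrane regulator Crry, had the lowest value at -0.30, with 10271 with heat and 11519 in the control sample at its brightest probe. Cd59a, an inhibitor of the membrane pore, had a mean of -0.05 over 2 probes. Cpn1, which encodes a carboxypeptidase that trims complement fragments, was well above background in the heated sample only and by the bound above at least 1.01-fold higher there. The flagged probe had 30.5 with heat and 19.4 in the control sample. Clu, which encodes clusterin, was likewise detected in the heated sample only, with signals of 29.1 with heat and 28.5 in the control sample and no fold.

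Further Fc receptor genes were detected in part. Of 14, 6 were measured on both arrays, 3 higher and 3 lower in the heated sample, with a median of -0.04. Pigr, which encodes the receptor that carries polymeric antibodies across epithelia, had 39639 with heat and 47190 in the control sample (-0.21) at 1 usable probe. Trim21, a cytosolic antibody receptor, had 1917 with heat and 1788 in the control sample (0.14). Fcgrt, the neonatal Fc receptor that recycles IgG, had 596 with heat and 560 in the control sample (0.13). Fcrlb, an Fc receptor-like gene, was well above background in the heated sample only and by the bound above at least 1.22-fold higher there. Its signals were 36.9 with heat and 20.3 in the control sample.

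All 20 genes of Fc receptor signalling were measured, 12 higher and 8 lower in the heated sample, with a median of 0.05 and none past 0.5. Tyrobp, a signalling chain related in function to the gamma chain, had 148082 with heat and 144734 in the control sample (0.07). Vav1, a signalling protein that acts downstream of Syk, had 22621 with heat and 23164 in the control sample (0.00). Syk, the kinase that docks on the phosphorylated gamma chain, had a mean of -0.01 over 4 probes that ranged between -0.27 and 0.13.

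**Figure D4:**
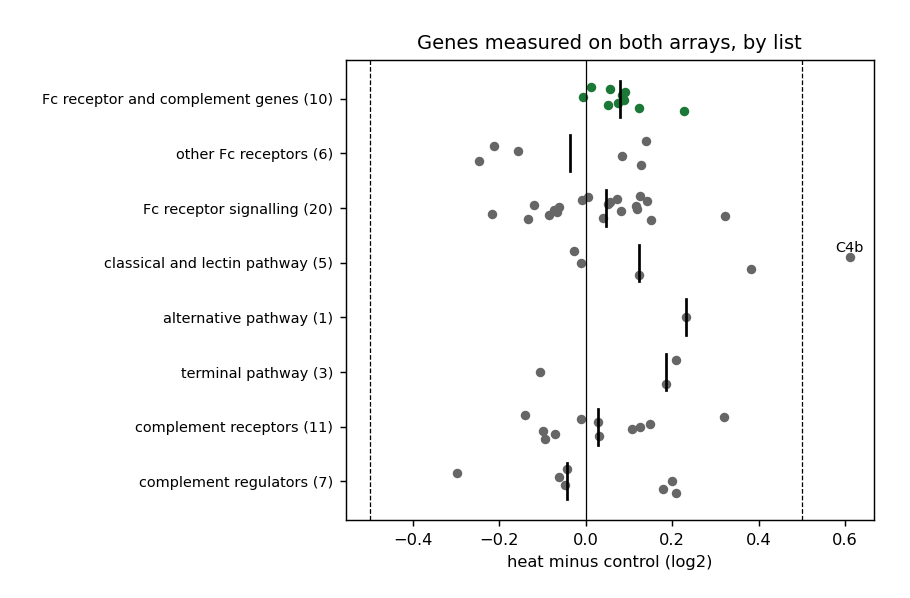
Difference (heat minus control, log2) of each gene measured on both arrays, by list, with the number of measured genes in parentheses, a bar at the median and dashed lines at 0.5 in either direction. The values lie on both sides of 0 in most lists, and C4b at 0.61 is the only point outside the dashed lines.

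As a check of the labelled tissue, lists of cell markers were read on both arrays. All 9 macrophage and monocyte markers were detected on each array, including Csf1r, Adgre1 and Mertk, with 7 higher and 2 lower with heat, a median of 0.06, and the highest value, 0.73, for Ccr2. Neutrophil markers were detected for 4 of 7 genes, and Ly6g, Cxcr2 and Retnlg were not. B cells, which also carry the Fcgr2b receptor, had 1 of 5 markers detected (Cd79b); among the others, Cd79a, Ms4a1 and Pax5 lacked the flag in both samples. T cell markers were detected for 3 of 5 genes (not Cd3g and Cd8a) and NK cell markers for 2 of 5 (not Gzma, Gzmb and Ncr1). Both of these NK cell markers were dim. Klrb1c had a mean difference of -0.01 over 2 probes, at -0.23 and 0.22, with 46.3 with heat and 40.7 in the control sample at the brighter. Prf1 had -1.68 from 1 probe, with signals of 46.0 with heat and 152 in the control sample. Red cell and platelet markers were detected for 1 of 5 genes each, and the protocol lysed red cells and removed globin transcripts. None of 5 hepatocyte markers, Alb among them, was detected. Of 6 mast cell, basophil and eosinophil markers, 3 carried the flag with heat and 1 in the control, where Prg2 and Prss34 lacked it. The part of cell makeup in the differences above was not tested.

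**Figure D5:**
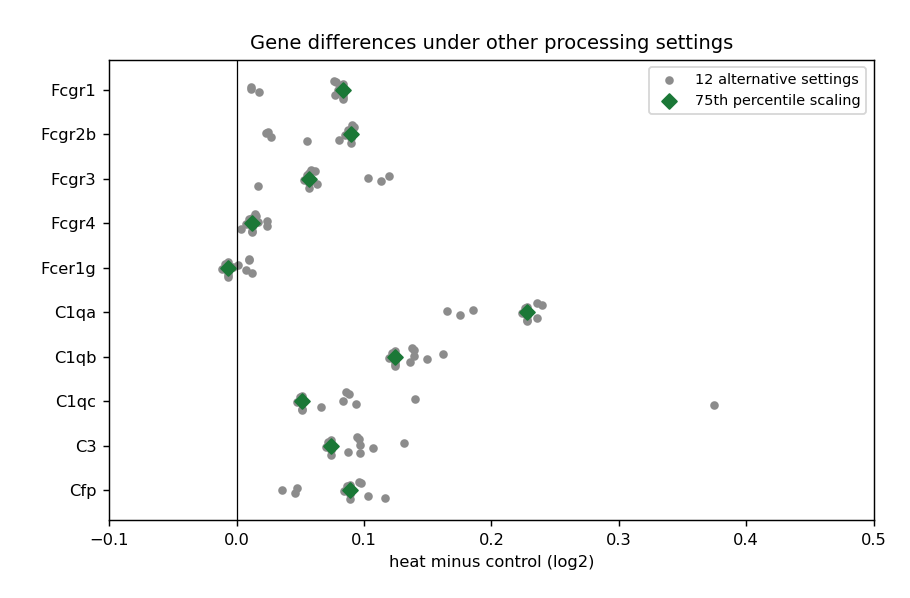
Difference (heat minus control, log2) of each of the 10 genes with the 75th percentile scaling (green diamonds) and under the 12 other settings (grey points). Every gene except Fcer1g stays above 0 throughout, and the highest point is C1qc at 0.38 with dim probes kept.

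C1qa had the highest value in 12 of the 13 settings and lay between 0.16 and 0.24 in all of them. Fcgr4 lay between 0.0038 and 0.02, and Fcer1g between -0.01 and 0.01. Over the settings the range of each gene overlapped that of at least 1 other gene, so the order of the genes above is that of the 75th percentile scaling.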

How the data were processed

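Per the labels' protocols, blood RNA was prepared with red cell lysis, depleted of globin transcripts, amplified and Cy3-labelled. The scanner software was Agilent Feature Extraction 10.7.1.1 and probe coordinates are mm9, per the file headers; version 9.1 is named in the submitters' processing notes. The deposited scanner files hold linear intensity values, per the file headers, namely the processed signal with its error, the mean signal and the background. Deposited flags for other spot properties come from the same software. The authors' deposited table holds log2 values with a median of 5.26 in each column; they correlated with quantile-normalized log2 processed signals (r rounds to 1) without equalling them, so scale and direction are settled and how the authors made them is not given in the sources used here. Both arrays lay on 1 slide and in 1 scan, so neither differed between the groups.

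Spots flagged as outliers were dropped (168 with heat, 149 in the control), and none was saturated. Spots of a probe were averaged after log2, each array's 75th percentile was subtracted, and differences were averaged by gene across those probes that carried the detection flag on each array, named by the files' gene name column (18562 genes, from 28755 probes). The number of arrays limits the precision. Of the 15 probes, 13 had a record in a table of GRCm38.p6, which gave the same symbol for all 13. The members and lists were chosen with earlier results of these data known. Named are all 10 members, each pathway gene past 0.5, up to 3 others per list with the highest mean level, and genes detected on 1 array only; other genes were named for their roles or as undetected after values had been seen. A few genes that this rule names are not reported here. The calculation was tested on simulated data. R 4.3.3, limma 3.58.1, data.table (1.17.8), Python 3.11.15, pandas 2.3.3 and matplotlib 3.10.9 were used.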

Additional observations from a re-analysis of the deposited data

How the results depend on the processing

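Under the 12 alternatives, all 10 genes stayed measured and none reached 0.5; their median lay between 0.06 and 0.09, and 9 or 10 of them were above 0. The count of pathway genes past 0.5, examined under these settings after seeing the data, was 1, and became 0 with both normexp settings and among the brighter 50% of detected probes, and 7 with dim probes kept. Over all genes, the counts past 1 and past 0.5 (123 and 813) were 36 and 265 with normexp and the 75th percentile, 38 and 266 with normexp and quantile normalization, 17 and 131 among the brighter 50% of probes, and 1735 and 4891 with dim probes kept, where the median of all genes was -0.10. The cause was not tested. No paired analysis was possible because each group has 1 array.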

Other observations

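Some pathway genes gave unlike values at different probes; they were picked after their values had been seen. Lrp1, which encodes a large endocytic receptor that also binds C1q, ranged between 0.03 and 0.58 over 3 probes, and its brightest probe had 21687 with heat and 21775 in the control sample. Itgax, the alpha chain of complement receptor integrin CR4, ranged between -0.30 and 0.46 over 3 probes, with 8749 with heat and 11076 in the control sample at the brightest. Cr1l ranged between -0.69 and -0.08 over 3 probes.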
